A study of Mus musculus with 6 samples.

Results

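The genes described here encode signals by which the intestinal epithelium addresses the lymphocytes that live within it. They were given as 8 gene symbols, namely the butyrophilin-like genes Btnl1, Btnl2, Btnl4 and Btnl6, the cytokine Il15 and its presenting receptor chain Il15ra, the cytokine Il7, and Tnfrsf14, the gene of the herpesvirus entry mediator. All 8 were found among the 54446 genes of the count table, each once. RNA was sequenced from epithelium of 3 control mice carrying floxed alleles of Prkci (Prkci flox/flox) and of 3 knockout mice with the same alleles and Villin-Cre, a recombinase driven by a promoter of intestinal epithelium. The product of Prkci, an atypical protein kinase C, helps to set up apical and basal polarity in epithelial cells. The mice of both groups were 3 to 4 months old and co-housed, and the tissue was jejunum per the sample titles and jejunum to ileum per the series text.

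As background, intraepithelial lymphocytes sit between enterocytes, and many carry a gamma delta T cell receptor. In the mouse intestine, Btnl1 protein at the enterocyte surface pairs with Btnl6 or Btnl4, and the Btnl1 and Btnl6 pair engages T cells whose receptor uses the V gamma 7 chain. The cytokine IL15 is held on the enterocyte by the IL15 receptor alpha chain and shown to lymphocytes that bear the beta and common gamma chains, IL7 signals through Il7r with the same common gamma chain, and the herpesvirus entry mediator binds Btla, Cd160 and the ligand Tnfsf14.

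Library totals, in units of 1000000 counts, ran from 18.97 to 26.69. Prkci itself, which checks the labels, stood at 44.6, 46.9 and 44.0 CPM (counts per 1000000 counts, after trimmed-mean scaling) in the controls and at 21.5, 14.6 and 21.4 CPM in the knockouts. Knockout replicate 1 stood apart from the other knockouts. On the first principal component of log2 CPM, which held 54.7% of the variance, it lay at −21.9, near the controls (−33.3 to −30.4) and far from knockout replicates 2 and 3 (68.0 and 50.9). The sex in the series text went against Xist and Ddx3y in 3 of 6 libraries. By these genes, control replicates 1 and 2 and knockout replicate 1 were male. Control replicate 3 and knockout replicates 2 and 3 were female, so sex was not balanced between the groups. Marker genes of T cells summed to 440, 290 and 249 CPM in the controls and 498, 1163 and 600 CPM in the knockouts, so the preparations held lymphocyte RNA in both genotypes and the groups did not overlap. In RNA from bulk tissue, fewer cells of a type and less RNA per cell cannot be told apart.

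The 4 butyrophilin-like genes lie together on mouse chromosome 17 (mm10, coordinates from the deposited table). Btnl2 (ENSMUSG00000024340.14) spans chr17:34354822-34369493 and Btnl1 (ENSMUSG00000062638.10) chr17:34377132-34385776, both on the forward strand. Btnl4 (ENSMUSG00000058435.5) spans chr17:34469042-34475937 and Btnl6 (ENSMUSG00000092618.2) chr17:34507804-34517352, both on the reverse strand, interleaved with the pseudogenes Btnl5-ps and Btnl7-ps. Btnl4 and Btnl6 are near copies. In their coding sequences 1456 bases were identical after alignment, 90.0% of the 1617 bases of the shorter one, against 56.8% to 60.5% for the other pairs of the 4 genes. The likeness extended to the 250 bases before the RefSeq start site used here. These were 91.2% identical between Btnl4 and Btnl6 and 53.2% to 56.8% identical between the other pairs. In GENCODE mouse release 21 the gene Btnl4 extends to chr17:34477318, so its window lies inside that longer span. Whether the window acts as a promoter was not tested. Both windows are printed to show how alike the sequence before the 2 start sites is. Capitals mark the bases that differ between them after alignment. The windows are chr17:34475938-34476187 for Btnl4 and chr17:34517353-34517602 for Btnl6, written 5′ to 3′ on the reverse strand, from RefSeq on GRCm38.p6.
Btnl4: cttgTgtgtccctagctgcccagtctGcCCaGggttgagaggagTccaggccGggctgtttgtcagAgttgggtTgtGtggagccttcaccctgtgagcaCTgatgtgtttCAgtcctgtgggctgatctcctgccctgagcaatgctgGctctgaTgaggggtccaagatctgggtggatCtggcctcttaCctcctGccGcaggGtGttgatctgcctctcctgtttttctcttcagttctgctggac
Btnl6: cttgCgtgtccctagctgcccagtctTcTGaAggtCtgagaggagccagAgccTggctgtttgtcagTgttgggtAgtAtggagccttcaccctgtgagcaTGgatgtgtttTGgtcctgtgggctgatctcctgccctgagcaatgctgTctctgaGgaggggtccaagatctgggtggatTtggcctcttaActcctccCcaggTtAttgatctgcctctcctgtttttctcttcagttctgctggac

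RefSeq promoter entries were found for 6 of the 8 genes, the exceptions being Il15 and Il7. The 250 bases upstream were searched on both strands for 4 motifs of factors linked to these genes or to enterocytes. CAAAGTCCA, a site of the HNF4 nuclear receptors, occurs in 0.384% of the 32851 promoters of the table, and the interferon-stimulated response element, searched as GAAA repeated after any 2 bases, in 2.98%. CNATAAA, a CDX site, occurs in 9.81% and TTCNNNGAA, the gamma-activated site, in 7.02%, and neither was found in the 6 genes. Among the 6 genes, the HNF4 letters were found upstream of Btnl2 and the interferon response letters, on the opposite strand, upstream of Tnfrsf14. These windows are printed because each holds a match, which is marked in capitals, lies 41 bases before the start site in Btnl2 and 64 in Tnfrsf14, and describes the sequence alone. The RefSeq start used for Tnfrsf14 lies inside the gene span of the deposited table (chr4:154921933-154928563), so that its window is upstream of that start and not of the whole gene. They are chr17:34354572-34354821 on the forward strand and chr4:154928078-154928327 on the reverse strand.
Btnl2: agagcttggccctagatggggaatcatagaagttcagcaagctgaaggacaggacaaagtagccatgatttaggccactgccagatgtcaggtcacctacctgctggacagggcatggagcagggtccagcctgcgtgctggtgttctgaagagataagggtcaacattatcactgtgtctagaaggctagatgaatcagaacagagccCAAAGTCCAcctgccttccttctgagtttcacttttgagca
Tnfrsf14: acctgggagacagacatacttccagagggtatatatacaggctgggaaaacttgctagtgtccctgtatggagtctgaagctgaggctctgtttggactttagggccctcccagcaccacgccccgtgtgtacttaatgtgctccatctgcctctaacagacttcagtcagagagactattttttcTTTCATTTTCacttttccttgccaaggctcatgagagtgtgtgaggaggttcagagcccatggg

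The 8 genes spanned a wide range of levels. Compared per length, as CPM per exonic kilobase over the 6 libraries, Btnl6 was the most abundant (mean 234, range 220 to 246), followed by Btnl1 (127, 107 to 152). Btnl2 (72.5, 61.5 to 83.2) and Btnl4 (53.6, 44.5 to 64.0) came next and their ranges overlapped. Tnfrsf14 (15.8, 13.8 to 18.0) and Il15 (12.7, 7.34 to 17.8) also overlapped, and Il15ra (3.68, 2.99 to 4.68) and Il7 (0.501, 0.342 to 0.679) lay below them. The other neighbours in this order did not overlap. The 4 butyrophilin-like genes thus stood above the cytokine and receptor genes in each of the 6 libraries. The pseudogenes of the cluster were also counted at high levels, Btnl5-ps at 136 ± 16.9 (SD, n = 3) and Btnl7-ps at 64.1 ± 8.28 (SD, n = 3) CPM per exonic kilobase in the controls. Of the 50-base windows of their transcripts, 14.0% in Btnl4 and 6.58% in Btnl6 occur in transcripts of other genes, for Btnl4 mostly in Btnl5-ps (9.11%) and Btnl7-ps (4.94%). Btnl4 and Btnl6 share few such windows with each other, 1.16% of those of Btnl4 and 1.59% of those of Btnl6. For Tnfrsf14 the share was 4.25%, and no such window was found in Btnl1, Btnl2, Il15, Il15ra or Il7. Counts of Btnl4 and Btnl6 are therefore less certain than those of Btnl1 and Btnl2.

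**Figure D1:**
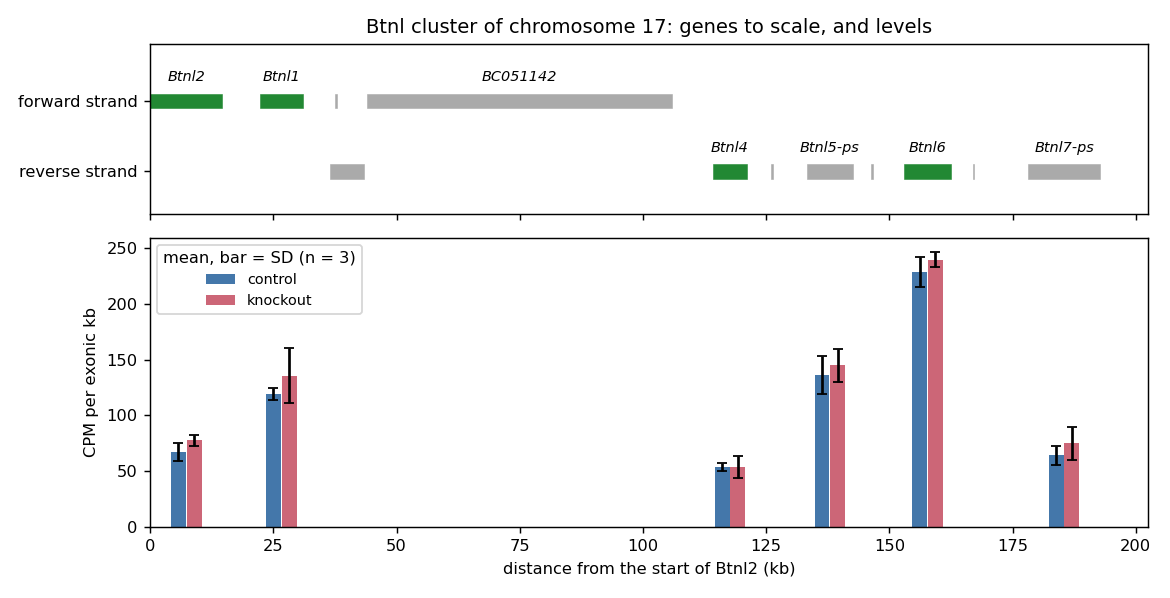
The butyrophilin-like cluster of chromosome 17. The upper panel draws the genes to scale by strand, with the 4 described genes in green and others in grey, and the lower panel gives mean CPM per exonic kilobase with SD (n = 3) in controls (blue) and knockouts (red), with distance from the start of Btnl2 in kilobases on the x axis. Btnl6 is the highest gene in both genotypes, and the SD bars of the genotypes overlap for every gene.

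None of the 8 genes differed between the genotypes in the edgeR quasi-likelihood test over 15068 genes at a Benjamini-Hochberg adjusted p under 0.05, a threshold that 9 genes passed (0.0597% of those tested, 0.0531% higher and 0.00664% lower in the knockouts). DESeq2, which called 5.68% of the genes it tested (3.70% higher and 1.98% lower), and limma-voom also called 0 of the 8. At an unadjusted edgeR p under 0.05, 0 of the 8 passed, against 16.4% of all genes tested (9.32% higher and 7.09% lower). The fitted log2 fold change was positive for 7 of the 8, against 50.7% of all genes, with a median of 0.20 against 0.01. Btnl4, 1 of the 7, stood at 0.00. With library totals Btnl4 was at −0.10 and Btnl6 at −0.04, and the median of all genes at −0.10. On the trimmed-mean scale, the values of the 2 genotypes did not overlap for Il7 and Tnfrsf14, both higher in the knockouts. This is 2 of 8 beside 21.8% of all genes tested (10.0% higher and 11.7% lower), and both differences were smaller with library totals. With 3 mice a group these comparisons have limited reach. The edgeR test did not call Prkci itself (log2 fold change −1.24, edgeR adjusted p = 0.0719), whereas DESeq2 did (adjusted p = 9.73e-08). In simulated counts the edgeR test recovered 42% of 100 genes changed 2-fold and 89% of 100 changed 4-fold. A gene that was not called is therefore not shown to be unchanged, and the interval of each difference is given below.

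**Figure D2:**
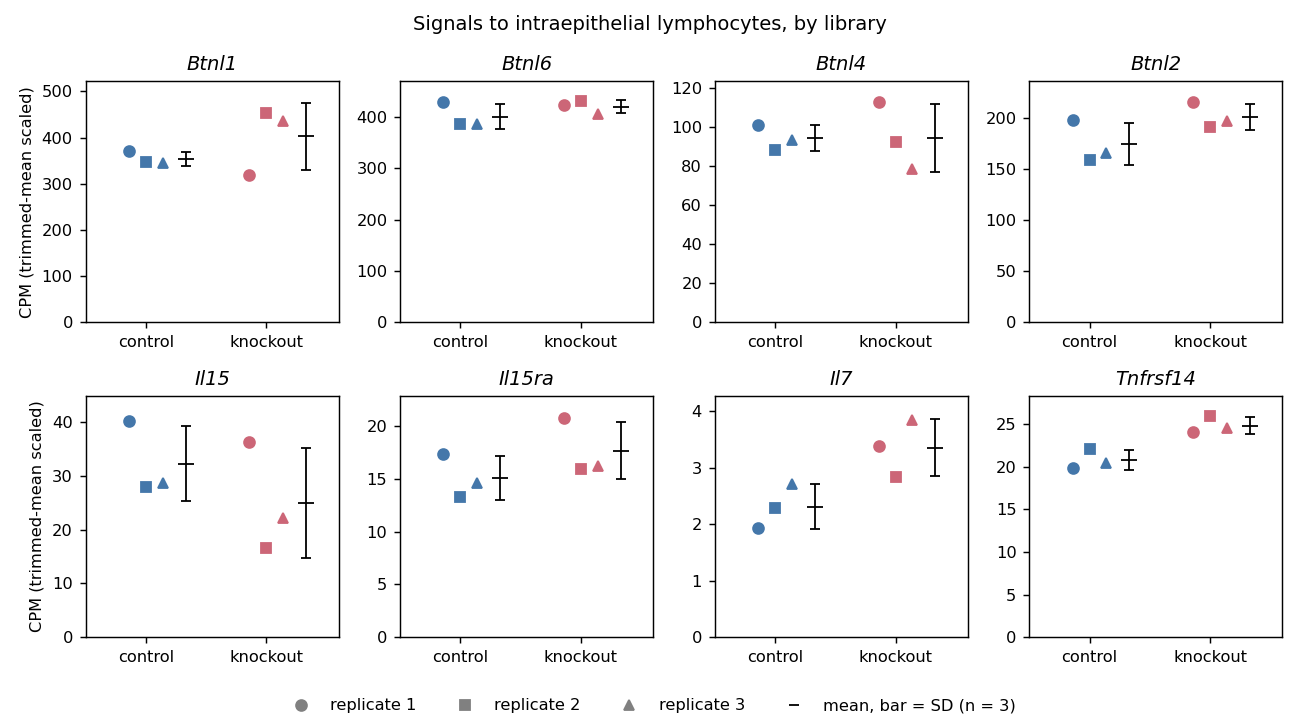
Levels of the 8 genes in each library, in CPM on a linear axis from 0, with controls in blue, knockouts in red, 1 symbol shape per replicate number, and the mean with SD (n = 3) beside each group. The groups overlap except for Il7 and Tnfrsf14, and knockout replicate 1 is the lowest library for Btnl1 and the highest knockout for Il15.

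Btnl1, the common partner of the butyrophilin-like pairs, was measured at 371, 346 and 345 CPM in the controls and 319, 453 and 436 CPM in the knockouts. Knockout replicates 2 and 3 exceeded every control, whereas knockout replicate 1 was the lowest of the 6 libraries. The means were 354 ± 14.8 and 403 ± 72.9 CPM (SD, n = 3), a log2 fold change of 0.19 (SE 0.16, edgeR adjusted p = 0.573), and the 95% interval of the fold ran from 0.881 to 1.47. Without knockout replicate 1 the log2 fold change was 0.33 (SE 0.10, edgeR adjusted p = 0.0642), in a fit in which 17.5% of all genes tested passed the threshold (10.0% higher and 7.44% lower), and without knockout replicate 2 it was 0.11.

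Btnl6, whose protein forms with Btnl1 the pair that V gamma 7 cells recognise, stood at 428, 386 and 387 CPM in the controls and 423, 431 and 406 CPM in the knockouts. It was the steadiest of the 4 and its groups overlapped. The log2 fold change was 0.07 (SE 0.11, edgeR adjusted p = 0.773), with a fold interval of 0.877 to 1.25, and leaving out each library gave 0.04 to 0.14, the highest without control replicate 1.

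Btnl4, the alternative partner of Btnl1, was counted at 101, 88.4 and 93.4 CPM in the controls and 113, 92.1 and 78.5 CPM in the knockouts. The knockouts held both the highest and the lowest library. Both means were 94.4 CPM, with SDs of 6.51 and 17.2 (n = 3), a log2 fold change of 0.00 (SE 0.15, edgeR adjusted p = 1.00) and a fold interval of 0.786 to 1.27.

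Btnl2, a relative that in mice is known to act on T cells as an inhibitory ligand, stood at 197, 159 and 166 CPM in the controls and 215, 191 and 196 CPM in the knockouts. Control replicate 1 lay within the knockout values and the other controls below them. The log2 fold change was 0.21 (SE 0.12, edgeR adjusted p = 0.430), with a fold interval of 0.946 to 1.41, and without control replicate 1 it was 0.33.

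Summed, the 4 genes reached 1099, 979 and 991 CPM in the controls and 1070, 1167 and 1118 CPM in the knockouts (1023 ± 65.8 and 1118 ± 48.5, SD, n = 3). The groups overlapped, with p = 0.2 in an exact two-sided permutation test, in which 3 against 3 libraries cannot give less than 0.1. The composition of this sum was even in the controls, where Btnl1 made up 33.8% to 35.3% and Btnl6 39.0% to 39.4%. In the knockouts it varied more, with Btnl1 at 29.8% in replicate 1 and 38.8% and 39.1% in replicates 2 and 3. The Btnl4 share went the other way, at 10.5% in knockout replicate 1 and 7.90% and 7.02% in the other two, against 9.03% to 9.43% in the controls.

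Ratios of counts within a library, which need no scaling, show the same spread. The Btnl6 to Btnl1 ratio was 1.15, 1.11 and 1.12 in the controls and 1.32, 0.951 and 0.931 in the knockouts. The Btnl4 to Btnl1 ratio was 0.273, 0.256 and 0.270 in the controls and 0.353, 0.203 and 0.180 in the knockouts. For both ratios knockout replicate 1 lay above all controls and replicates 2 and 3 below them. The log2 ratio differed by −0.10 for Btnl6 to Btnl1 and by −0.18 for Btnl4 to Btnl1, and by −0.26 and −0.48 without knockout replicate 1. The exact two-sided permutation p was 0.5 for Btnl6 to Btnl1 and 0.6 for Btnl4 to Btnl1, both 0.6 after Benjamini-Hochberg adjustment over 3 ratios. The SD of the log2 ratio was 0.03 in controls and 0.28 in knockouts for Btnl6 to Btnl1, and 0.05 and 0.52 for Btnl4 to Btnl1 (n = 3). A difference in spread was not tested.

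**Figure D3:**
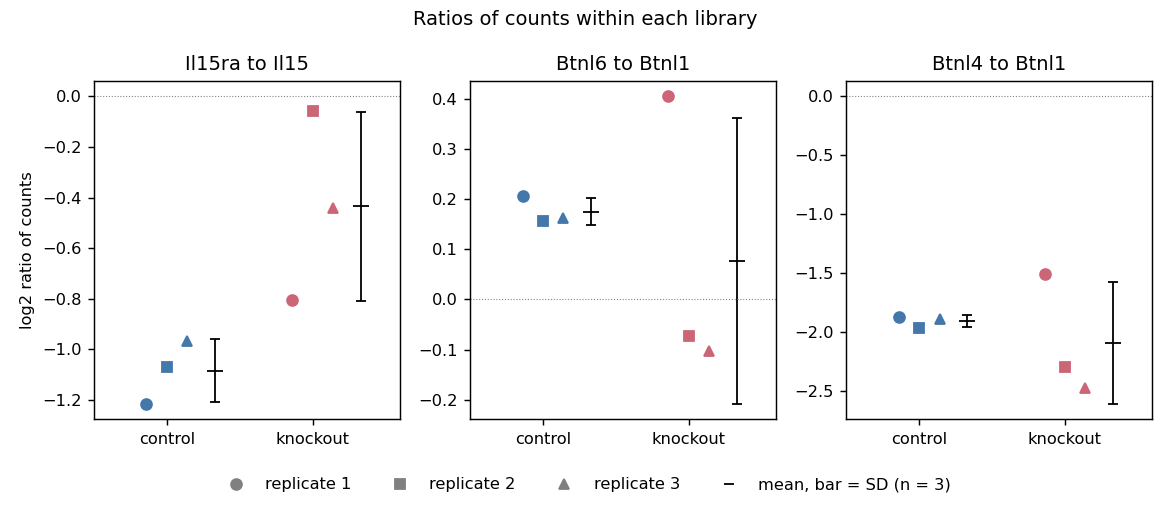
Log2 ratios of counts within each library for Il15ra to Il15, Btnl6 to Btnl1 and Btnl4 to Btnl1, with controls in blue, knockouts in red, 1 symbol shape per replicate number, and the mean with SD (n = 3). The Il15ra to Il15 ratio of each knockout exceeds those of all controls, and the butyrophilin-like ratios place knockout replicate 1 above the controls and replicates 2 and 3 below.

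Il15 (ENSMUSG00000031712.10, reverse strand of chromosome 8), a growth and survival factor of intraepithelial lymphocytes, was the only one of the 8 genes with a negative fitted fold change. Its levels were 40.3, 27.9 and 28.6 CPM in the controls and 36.3, 16.6 and 22.1 CPM in the knockouts. Knockout replicates 2 and 3 were below every control and knockout replicate 1 lay inside the control range. The means were 32.2 ± 6.95 and 25.0 ± 10.2 CPM (SD, n = 3), a log2 fold change of −0.37 (SE 0.30, edgeR adjusted p = 0.555), with a fold interval of 0.477 to 1.26. No label says what a replicate number marks, so libraries of the same number are not known to be pairs. Within each number the knockout was lower for Il15, and it was higher for Btnl2, Il15ra, Il7 and Tnfrsf14. With the replicate block the log2 fold change of Il15 was −0.42 (SE 0.15, 95% interval −0.81 to −0.03), with an unadjusted p of 0.0382 and an edgeR adjusted p of 0.284. No other of the 8 genes had an unadjusted p under 0.05 in that fit, and no gene tested passed the threshold. Single libraries moved the value both ways. Without knockout replicate 1 the log2 fold change was −0.74 (SE 0.21, edgeR adjusted p = 0.0502), whereas it was −0.13 without knockout replicate 2 and −0.16 without control replicate 1. Over the alternatives the adjusted p of Il15 ranged from 0.0502 to 0.896.

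Il15ra (ENSMUSG00000023206.16, forward strand of chromosome 2), the chain that presents IL15, was counted at 17.3, 13.3 and 14.6 CPM in the controls and 20.8, 15.9 and 16.3 CPM in the knockouts. The groups overlapped through control replicate 1. The log2 fold change was 0.23 (SE 0.17, edgeR adjusted p = 0.516), with a fold interval of 0.892 to 1.54. It was 0.09 without knockout replicate 1, 0.14 without control replicate 2 and 0.36 without control replicate 1.

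The balance between the 2 transcripts separated the genotypes where neither did alone. The Il15ra to Il15 ratio of counts was 0.431, 0.477 and 0.511 in the controls and 0.572, 0.961 and 0.737 in the knockouts. Each knockout lay above every control, and knockout replicate 1 was the closest to them. Among single genes tested, 21.8% did not overlap between the genotypes, and the share among ratios of other gene pairs was not computed. Which cells of the preparation held either transcript was not tested. The mean log2 ratio was −1.08 ± 0.12 in controls and −0.43 ± 0.37 in knockouts (SD, n = 3), a difference of 0.65. The exact two-sided permutation p was 0.1, the smallest this design allows, and 0.3 after adjustment over the 3 ratios, so this difference does not pass a threshold of 0.05.

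Il7 (ENSMUSG00000040329.14, reverse strand of chromosome 3), a cytokine for lymphocyte survival that enterocytes also make, had the lowest level, with 44, 55 and 65 counts in the controls and 67, 65 and 96 in the knockouts. These are 1.94, 2.29 and 2.72 CPM in the controls and 3.39, 2.83 and 3.84 CPM in the knockouts. The 3 knockouts lay above the 3 controls, with a narrow gap between control replicate 3 and knockout replicate 2. The log2 fold change was 0.53 (SE 0.24), the largest in size of the 8, with an unadjusted p of 0.0584, an edgeR adjusted p of 0.321 and a fold interval of 0.983 to 2.13. An antisense gene, Gm16685, shares 105 exonic bases with Il7 and held 3, 2 and 1 counts in the controls and 4, 80 and 31 in the knockouts. Whether the counting used strand is not known from the labels, and reads of these overlapping bases cannot be assigned with certainty. The preparations also held RNA of other cells. Within each group the marker sum of stroma and muscle took the same order of libraries as Il7. That sum was 8.49, 11.0 and 23.8 CPM in the controls and 82.5, 15.9 and 86.1 CPM in the knockouts. The source of Il7 among the cells of the preparation was not tested.

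Tnfrsf14 (ENSMUSG00000042333.16, reverse strand of chromosome 4), the receptor by which epithelium and lymphocytes exchange Btla, Cd160 and Tnfsf14 signals, stood at 19.84, 22.04 and 20.38 CPM in the controls and 24.03, 25.88 and 24.47 CPM in the knockouts. Each knockout was above every control, with little spread in either group. The means were 20.8 ± 1.15 and 24.8 ± 0.966 CPM (SD, n = 3), a log2 fold change of 0.26 (SE 0.11). The unadjusted edgeR p was 0.0525 and the edgeR adjusted p 0.310, with a fold interval of 0.998 to 1.43. Over the alternatives the unadjusted p lay on both sides of 0.05. It ran from 0.0418 in the DESeq2 Wald test to 0.319 in edgeR with library totals, and limma-voom gave 0.0491. Lymphocytes also express Tnfrsf14, and T cell markers stood higher in the same libraries, so that its source among the cells of the preparation was not tested.

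**Figure D4:**
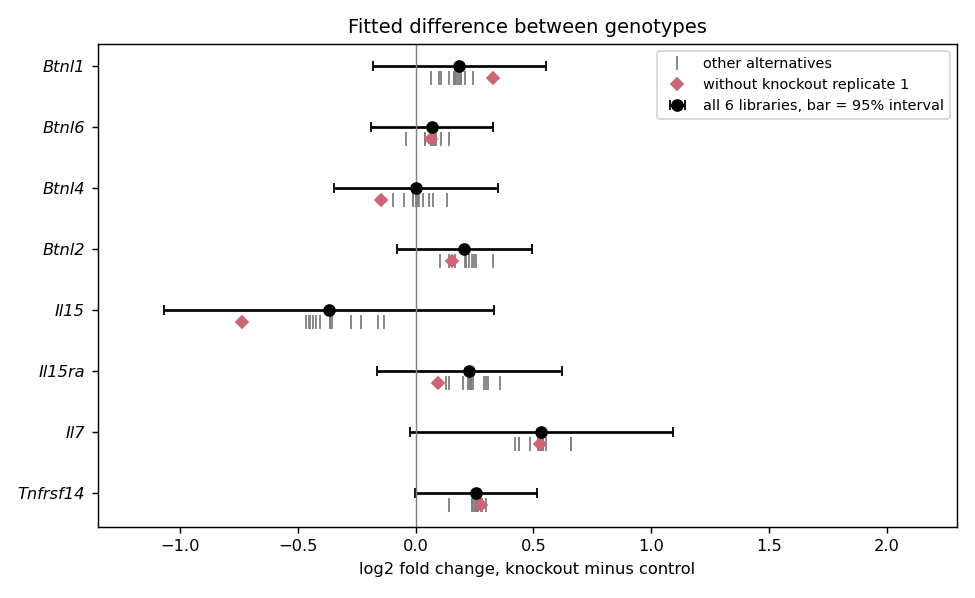
Fitted log2 fold changes (knockout minus control) of the 8 genes with 95% intervals in black, the value without knockout replicate 1 as a red diamond, and the other alternatives of scaling, filter, tool, covariate and omitted library as grey ticks. Every interval includes 0, and leaving out knockout replicate 1 moves Il15 from −0.37 to −0.74 and Btnl1 from 0.19 to 0.33.

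The 8 genes were also set against 10 epithelial markers, which made up 16.0, 15.7 and 15.9 of every 1000 counts in the controls and 16.5, 17.7 and 18.4 in the knockouts, higher in each knockout. The markers did not move alike, with log2 fold changes of 0.82 for Alpi, 0.37 for Krt20, 0.06 for Vil1 and −0.13 for Lgals4. Whether their sum tracks epithelial content was not tested. Set against the sum of these markers, all 8 genes overlapped between genotypes, Il7 and Tnfrsf14 included. Tnfrsf14 stood at 1.36 counts per 1000 epithelial marker counts in both groups. Btnl6 went from 26.2 ± 0.911 in controls to 23.1 ± 3.10 in knockouts, and Btnl1 from 23.2 ± 0.544 to 21.9 ± 1.63 (SD, n = 3). Il15 stood at 2.54, 1.89 and 1.87 in the controls and 2.29, 0.854 and 1.12 in the knockouts. The smallest exact two-sided permutation p over the 8 genes was 0.2, for Btnl1, and the smallest adjusted value was 0.6. With a single marker as denominator the overlap ended for 2 genes. Per Vil1 count, Tnfrsf14 was higher in each knockout, and per Epcam count, Btnl1 was lower in each knockout, both with an exact permutation p of 0.1 (0.64 and 0.8 after adjustment).

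The lymphocyte side of these signals was read from 9 listed receptors and ligands, of which 8 were in the table and 6 passed the expression filter. None passed the edgeR threshold. At an unadjusted p under 0.05, 4 of the 6 were higher in the knockouts (beside 9.32% of all genes tested), and the genotypes of those 4 genes did not overlap. Il2rb, the beta chain that receives presented IL15, stood at 10.6, 6.13 and 5.32 CPM in the controls and 12.6, 30.1 and 14.6 CPM in the knockouts, a log2 fold change of 1.38 (SE 0.40, edgeR adjusted p = 0.183), and DESeq2 called it (adjusted p = 0.0187). Il2rg, the common gamma chain, stood at 3.12, 1.92 and 1.21 CPM in the controls and 4.40, 4.40 and 3.32 CPM in the knockouts (log2 fold change 0.95, edgeR adjusted p = 0.257). Cd160, a lymphocyte ligand of the herpesvirus entry mediator, stood at 4.00, 3.42 and 2.26 CPM in the controls and 4.65, 7.62 and 4.53 CPM in the knockouts (0.80, edgeR adjusted p = 0.268). Il7r and Tcrg-V7, which are less abundant, were added after their values were seen. Il7r separated the genotypes (1.10 to 1.42 against 2.07 to 2.22 CPM). Tcrg-V7, the V gamma 7 segment of the receptor that Btnl1 and Btnl6 engage, overlapped, at 66, 21 and 12 counts in the controls and 47, 84 and 40 in the knockouts. The T cell marker sum given above was likewise higher in each knockout, with 14 of its 23 genes higher at an unadjusted p under 0.05. The order of libraries was not always shared, as Il7r rose from control replicate 1 to 3 while the sum fell. The part of lymphocyte number was not tested. Marker sums of macrophages and dendritic cells (13.6 to 17.1 against 26.4 to 48.0 CPM) and of B and plasma cells (94.2 to 191 against 281 to 453 CPM) were also higher in each knockout, as was that of endothelium (9.42 to 14.4 against 15.7 to 20.0 CPM). The markers of stroma and muscle, at 8.49, 11.0 and 23.8 CPM in the controls and 82.5, 15.9 and 86.1 CPM in the knockouts, overlapped and had the largest median log2 fold change of the marker lists (2.06).

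**Figure D5:**
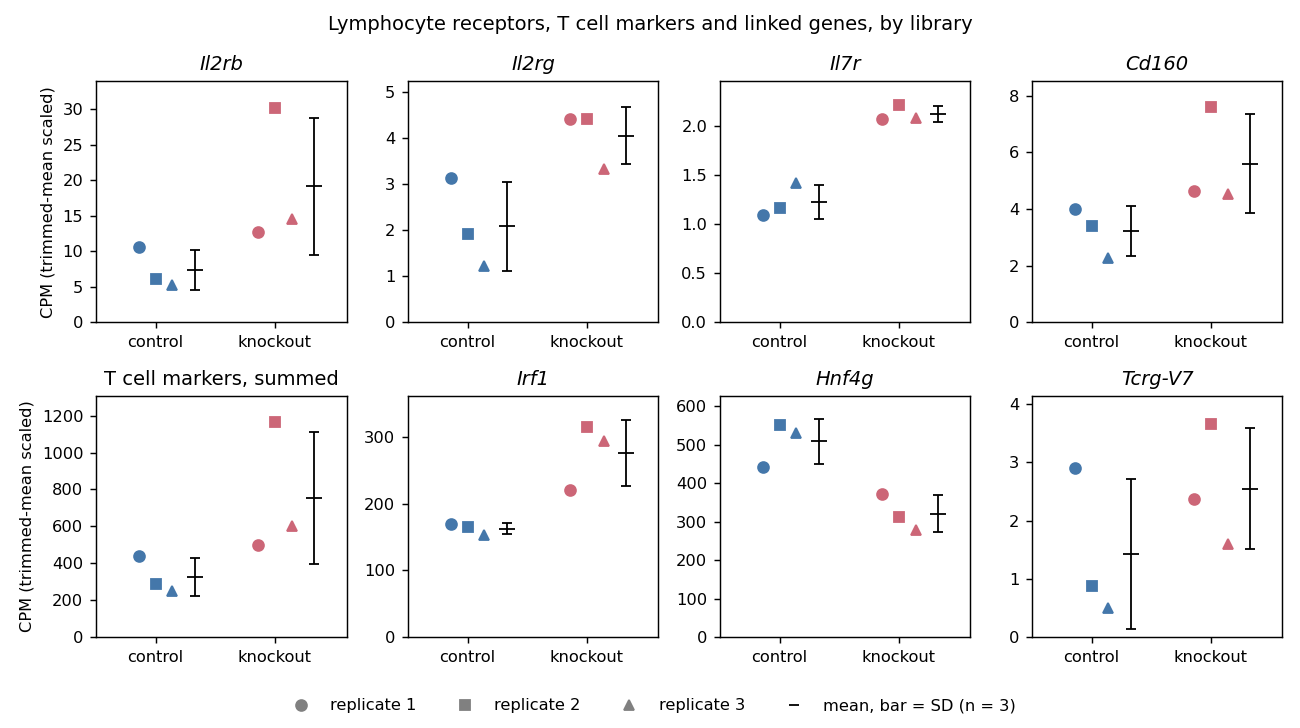
Levels in each library, in CPM on linear axes from 0, of the lymphocyte receptors Il2rb, Il2rg, Il7r and Cd160, the T cell marker sum, the transcription factor genes Irf1 and Hnf4g, and Tcrg-V7, with controls in blue, knockouts in red and the mean with SD (n = 3). Each panel separates the genotypes except Tcrg-V7, with Hnf4g lower and the others higher in the knockouts.

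Other epithelial signals to these lymphocytes formed a list of 21 genes, of which 13 passed the filter and none passed the edgeR threshold. At an unadjusted p under 0.05, 6 of the 13 were higher and 1 lower, beside 9.32% and 7.09% of all genes tested. The most abundant were Cdh1, the E-cadherin that binds the lymphocyte integrin CD103, with a log2 fold change of 0.32 (edgeR adjusted p = 0.424), and the chemokine Ccl25, with −0.23 (edgeR adjusted p = 0.542). Icam1, an adhesion ligand of lymphocyte integrins, stood at 1.19, 0.833 and 0.837 CPM in the controls and 2.38, 4.44 and 3.36 CPM in the knockouts (log2 fold change 1.83, SE 0.32, edgeR adjusted p = 0.101, DESeq2 adjusted p = 0.000265). H2-T10, a nonclassical class I gene, had a log2 fold change of 1.01 (edgeR adjusted p = 0.145, DESeq2 adjusted p = 0.0303). The 1 lower gene was Kitl, the Kit ligand, named after its values were seen, at 101, 117 and 134 CPM in the controls and 79.3, 43.1 and 63.4 CPM in the knockouts (−0.92, SE 0.23, edgeR adjusted p = 0.145, DESeq2 adjusted p = 0.00872).

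Of 11 listed relatives of the butyrophilin family, 9 were in the table and only Btnl5-ps and Btnl7-ps passed the filter. Btnl5-ps had a log2 fold change of 0.09 (edgeR adjusted p = 0.761) and Btnl7-ps of 0.22 (edgeR adjusted p = 0.530). Among 6 genes of cytokine and receptor signalling, 1 was higher at an unadjusted p under 0.05 (9.32% of all genes were), namely Jak3, the kinase of the common gamma chain. Its levels were 5.54, 4.04 and 4.94 CPM in the controls and 9.31, 15.6 and 11.2 CPM in the knockouts (log2 fold change 1.31, SE 0.24, edgeR adjusted p = 0.104, DESeq2 adjusted p = 0.000152). The most abundant of them, Jak1, differed by 0.10 on the log2 scale, Stat5b by 0.21 and Traf3 by −0.02.

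Transcription factors linked to the 8 genes formed a list of 8, all tested, of which none passed the edgeR threshold, and 1 was higher and 1 lower at an unadjusted p under 0.05, shares close to the 9.32% and 7.09% of all genes. Irf1, an interferon-induced factor known to act on the Il15 and Il7 genes, stood at 169, 164 and 154 CPM in the controls and 220, 314 and 294 CPM in the knockouts (log2 fold change 0.76, SE 0.15, edgeR adjusted p = 0.115, DESeq2 adjusted p = 0.000939). Hnf4g, an enterocyte nuclear receptor of the HNF4 motif above, stood at 443, 552 and 530 CPM in the controls and 372, 312 and 278 CPM in the knockouts (−0.66, SE 0.16, edgeR adjusted p = 0.135, DESeq2 adjusted p = 0.00441). Its paralog Hnf4a, the more abundant in CPM, had a log2 fold change of 0.09 (edgeR adjusted p = 0.737). Btnl2, which carries the HNF4 letters, had a fold interval that included 1, as did the other 3 butyrophilin-like genes. Whether HNF4 factors act on any of these genes was not tested.

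Genes most like the mean of the 4 butyrophilin-like genes were sought by Pearson correlation of log2 CPM over 6 libraries, among 9731 genes with a mean of at least 5 CPM. The 4 genes did not share a pattern. Knockout replicate 1 was the lowest library for Btnl1 (319 CPM) and the highest for Btnl2 (215 CPM) and Btnl4 (113 CPM). The closest were Ikzf2 (r = 0.991), Atp6v0c (0.976), Mcts2 (0.974), Gm42986 (0.974) and Cdk17 (0.972), and 90 genes exceeded 0.9. Ikzf2, which encodes the factor Helios, stood at 12.0, 5.50 and 6.36 CPM in the controls and 12.4, 15.4 and 10.4 CPM in the knockouts. Its libraries thus took the same order as that mean, at a wider range. With 6 libraries that share depth and composition effects, these correlations describe likeness to that mean alone, and not to each of the 4 genes.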

How the data were processed

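RNA was sequenced from 6 mice, 1 library each and 3 per genotype, grouped by sample title. The table deposited by the authors holds raw read counts per gene. The submitters' processing notes name STAR 2.5.0a, Trim Galore, bcl2fastq 2.17, FastQC and the build mm10. For the annotation, the counting tool and its use of strand, nothing is given in the sources used here. Per the labels' protocols, epithelium was released with EDTA and dithiothreitol, and poly-A selection and a ribosomal RNA removal kit are both named.

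Counts were tested with edgeR 4.0.16 (R 4.3.3; trimmed-mean scaling, default expression filter with minimum count 10, quasi-likelihood F test, genotype as sole term), and p-values were Benjamini-Hochberg adjusted over all genes tested, with a threshold of 0.05. Exonic lengths came from GENCODE mouse release 21. For Btnl1, Btnl2 and Btnl4 the identifier version differed, and exons were limited to the deposited span. Single values were compared by exact two-sided permutation. Alternatives were other scalings, filters and tools (DESeq2 1.42.0, limma 3.58.1 voom), sex as a covariate, a replicate block, and omission of each library. The script was tested on simulated data.

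The 8 genes and all gene lists were chosen with earlier results of these data known. All 8 genes are named. From each pathway list the 2 most abundant genes and the 2 of largest change with a mean of at least 2 CPM are named, as are the 5 closest patterns.

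Replicate numbers are shared by the genotypes. Deviations from group means correlated at 0.117, 0.119 and 0.149 for libraries of the same number, each above 0.1, and at −0.143 to 0.00929 for other pairs, although no label says what a number marks. Such deviations cancel within a group, so these correlations are not independent of each other. No libraries agreed within sampling noise (lowest chi-square per gene 21.8).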

Additional observations from a re-analysis of the deposited data

How the results depend on the processing

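None of the 8 genes passed the threshold under any of the 15 alternatives, and the fitted direction held in all of them except for Btnl4 and Btnl6. Btnl4, with a log2 fold change of 0.00 in the full fit, gave −0.10 with library totals, −0.0133 with limma-voom and −0.0130 with the replicate block, and −0.15 to 0.13 when each library was left out, while Btnl6 gave −0.0399 with library totals, a scaling that brought the median of all genes from 0.01 to −0.10. The count of all genes called was 9, and became 16 with library totals, 284 without a filter, 839 with DESeq2, 5 with limma-voom, 4 with sex of the series text as covariate and 0 with the replicate block, which changed no call among the 8 genes. Leaving out each library gave 0 to 2700 genes, the highest without knockout replicate 1 and 0 without any one control or without knockout replicate 3. Per epithelial count, the log2 difference turned with Vil1 alone as denominator to 0.13 for Btnl1, 0.16 for Btnl2 and 0.0157 for Btnl6, and with Epcam alone to −0.0612 for Il15ra and −0.0805 for Tnfrsf14. Leaving out each library in turn moved these log2 differences across 0 for Btnl2 (−0.20 to 0.0502), Il15ra (−0.26 to 0.12) and Tnfrsf14 (−0.0798 to 0.0764), each near 0 in the full set, and the Btnl4 to Btnl1 log2 ratio (−0.48 to 0.0095, the highest without knockout replicate 3). With sex by Xist as covariate the log2 fold change was 0.10 for Btnl1 and −0.23 for Il15, closer to no change than in the full fit, as for Il7 and Tnfrsf14. For Btnl2, Btnl4, Btnl6 and Il15ra it was larger than in the full fit. Depth limits Il7 most, at 44 to 96 counts a library, and 3 mice a group limit all 8 genes.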
